A study of Mus musculus with 9 samples.

Results

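The genes described here encode LIM proteins that bind actin structures: the PDZ-LIM genes Pdlim1, Pdlim2, Pdlim3, Pdlim4, Pdlim5 and Pdlim7, the cysteine- and glycine-rich protein genes Csrp1 and Csrp2, and the adhesion adaptor genes Tgfb1i1 and Fblim1. They were chosen by name, and every probe set that the platform annotation maps to 1 of these 10 symbols alone was taken, which gave 22 of the 45101 probe sets on the array. The RNA came from NIH 3T3 cells, an established mouse fibroblast line, serum-starved and in all groups treated with the translation blocker cycloheximide (3 µg/ml, 2 h). There were 3 groups of 3 arrays: controls given no actin drug, cultures given cytochalasin D (2 µM, 90 min), and cultures given latrunculin B (5 µM) together with cytochalasin D for the same time, called the double-drug group. Titles of the double-drug samples mention latrunculin B only, and the agent label, which gives both drugs, was followed. The labels number the replicates 1, 3 and 7.

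A LIM domain is a zinc-binding module through which proteins hold on to other proteins. PDZ-LIM proteins dock on alpha-actinin or tropomyosin through their PDZ domain and carry their LIM domains to stress fibres, and in muscle to the Z line. CRP proteins sit on actin bundles with alpha-actinin and zyxin, and in smooth muscle they also act in the nucleus beside serum response factor (SRF). SRF is switched on by its coactivator MRTF, which monomeric actin (G-actin) holds back; cytochalasin D frees MRTF from G-actin, whereas latrunculin B keeps the pair together. The series compares the 3 states to find genes under this G-actin switch.

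Of the 22 probe sets, 18 lay above the filter for dim signals, the 40th percentile of the array on at least 3 arrays, and each of the 18 did so on all 9 arrays. They cover 8 of the 10 genes. The only probe sets of Pdlim3, a protein of the muscle Z line, and Pdlim4 did not pass, nor did 2 of 3 probe sets of Pdlim1. These 4 read between 3.81 and 6.24 on all arrays, where the 40th percentile of an array lay between 6.16 and 6.35, so they were not tested and no level or change is given for Pdlim3 and Pdlim4. The median intensity of an array was 7.57 to 7.84. In all, 27010 probe sets entered the fit. All 10 fibroblast markers passed the filter, with a summed intensity of 125629 to 135967 per array over the 3 groups. Of 8 skeletal muscle markers 5 passed it, the regulator Myf5 among them (mean 8.1 over the 9 arrays). The regulators Myod1 and Myog, and Ckm, did not. Of 5 epithelial markers Epcam (mean 13.1) and Cdh1 (8.79) passed, and the keratin genes Krt8, Krt18 and Krt19 did not. Of 5 macrophage and leukocyte markers 3 passed, Cd14 (mean 174), Csf1r (42.1) and Adgre1 (8.37), and Cd68 and Ptprc did not. All 4 endothelial markers did not pass the filter.

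Cytochalasin D raised the mRNA of 4 of the 8 measured genes, Csrp1, Tgfb1i1, Pdlim7 and Pdlim5, with ratios of group means between 2.58 and 3.48, while Pdlim1, Pdlim2 and Csrp2 had changes near 0 and none of the 8 fell. In the fit, 6 of 18 member probe sets were called higher and 0 lower (limma, Benjamini-Hochberg adjusted p under 0.05 over all tested probe sets), where 1.14% of all tested probe sets were called higher and 0.422% lower. The 3 cytochalasin D values lay above the 3 control values in 12 of 18 member probe sets and below them in 0, against 5.05% and 6.45% of all tested probe sets (11.5% in either direction). The median log2 change was 1.09 over the 18 and -0.00098 over all 27010. Of the 18 probe sets, 7 belong to Pdlim5. With 1 probe set per gene, the cytochalasin D values lay above all controls in 5 of 8 genes and below them in 0, and the median change was 0.92. These are bulk RNA samples, so a change in RNA per cell cannot be told apart from a change in the makeup of the culture.

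Csrp1, the CRP of smooth muscle and fibroblasts, has a pair of probe sets. The brighter one read 473, 392 and 396 in controls of replicates 1, 3 and 7, and 1256, 1475 and 1363 with cytochalasin D. The double-drug arrays stood between them, at 708, 776 and 800, and no group overlapped another. It rose by 1.66 on the log2 scale with cytochalasin D (SE 0.09, adjusted p = 0.000924), a ratio of group means of 3.25. The other probe set averaged 287 ± 60.8 in controls and 1234 ± 106 under cytochalasin D (SD, n = 3), and rose by 2.06 on the log2 scale (adjusted p = 0.00172). Csrp1 rose in all 18 alternative settings tried in this contrast, with adjusted p of at most 0.0197 in limma.

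Tgfb1i1 encodes Hic-5, a paxillin relative at focal adhesions that TGF-beta induces. Its only probe set read 359, 389 and 391 in controls, 916, 1250 and 1096 with cytochalasin D, and 606, 710 and 761 in the double-drug group. Again the groups were fully parted and the double-drug arrays lay in the middle. It rose by 1.47 on the log2 scale under cytochalasin D (SE 0.13, adjusted p = 0.00324), and the call held in all 18 alternatives, the adjusted p reaching 0.0282 in limma.

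Pdlim7 encodes Enigma, which binds tropomyosin on stress fibres. Its brightest probe set read 364, 444 and 411 in controls and 1129, 1508 and 1602 with cytochalasin D. The rise was 1.75 on the log2 scale (SE 0.20, adjusted p = 0.00955). In the double-drug group it read 708, 987 and 1136, above every control, and the highest of these 3 passed the lowest cytochalasin D array. A dimmer probe set was called as well: it averaged 55.1 ± 5.02 in controls and 101 ± 19.8 under cytochalasin D (SD, n = 3), and rose by 0.70 on the log2 scale (adjusted p = 0.049). The remaining one stayed at 8.23 to 10.7 on all arrays, close to background, and was not called. Without cytochalasin D replicate 3, the brightest probe set lost its call (adjusted p = 0.0512), and over all 18 alternatives the adjusted p ran from 0.00116 to 0.0512. As the mean of its 3 probe sets, 1 of them close to background, the Pdlim7 change was 0.84 with cytochalasin D (adjusted p = 0.00116) and 0.53 with both drugs (adjusted p = 0.0284).

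Pdlim5 encodes ENH, an Enigma relative that tethers protein kinase C to the cytoskeleton and the Z line. The brightest of its 7 probe sets read 1077, 953 and 742 in controls, 2200, 3037 and 1906 with cytochalasin D, and 1457, 1511 and 1159 in the double-drug group, with no overlap between groups. It was the only one of the 7 to be called without the replicate block, rising by 1.34 on the log2 scale (SE 0.21, adjusted p = 0.0355), and its name marks it as holding probes that may bind other transcripts. That call ended without any single array other than cytochalasin D replicate 7 (adjusted p between 0.0551 and 0.121), with no filter (0.0747) and where only these 6 arrays were fitted (0.157), out of a range from 0.0104 to 0.157 over 18 alternatives. Another 5 probe sets had changes between 0.97 and 1.63 that did not pass the test (adjusted p between 0.0596 and 0.364), and in 4 of these 5 the groups did not overlap. The last read 185, 305 and 196 in controls and 231, 292 and 247 with cytochalasin D, overlapping ranges, and its log2 change was 0.18 (95% interval -0.27 to 0.63). With the replicate block 4 of the 7 were called, the brightest among them (limma adjusted p between 0.0103 and 0.0403). The 7 probe sets share a gene and are not replicates of one another.

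**Figure D1:**
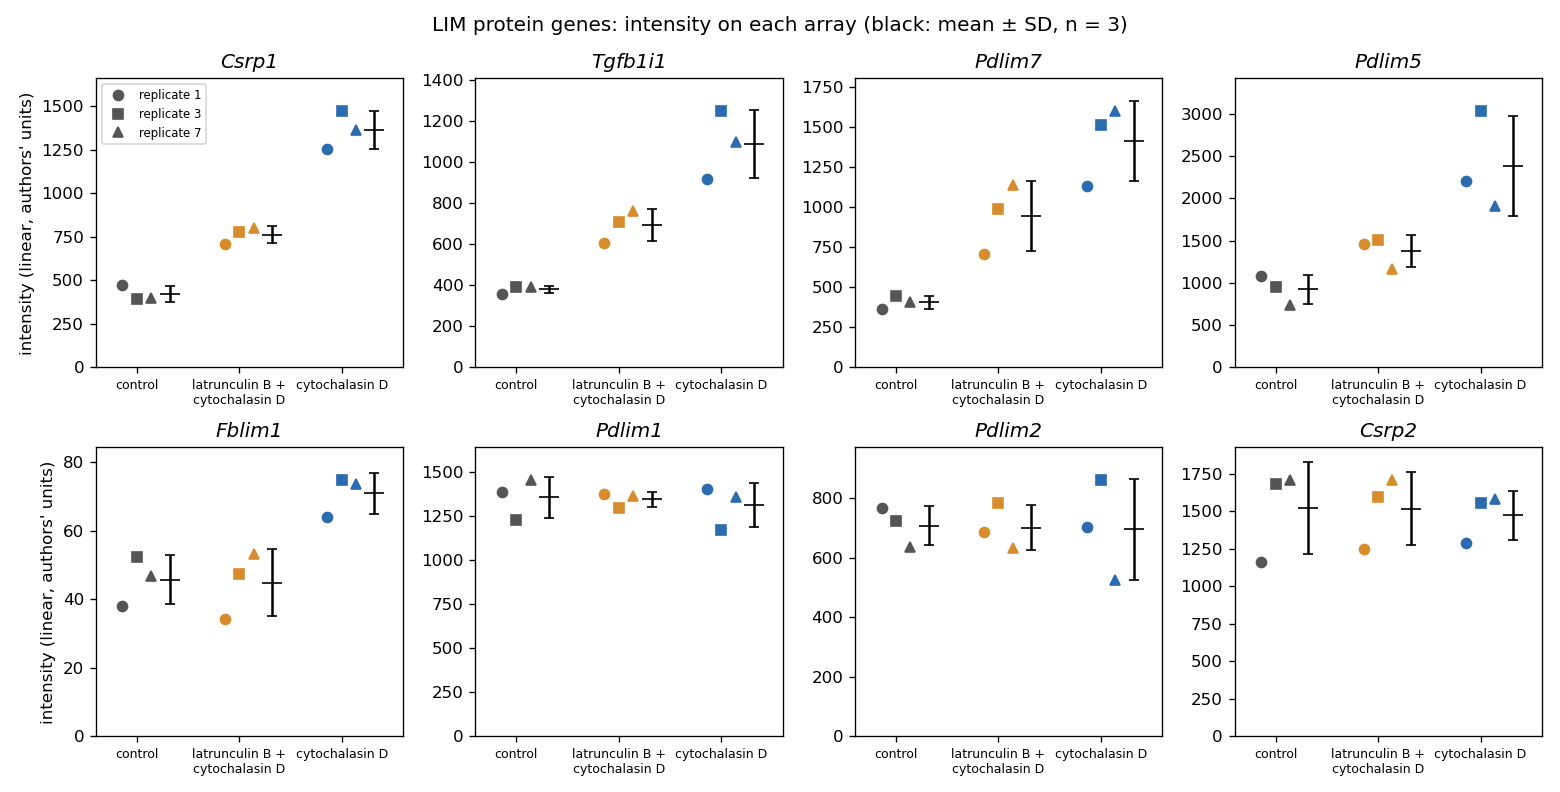
Intensity on the authors' linear scale (y axis, from 0) of the brightest tested probe set of each of 8 LIM protein genes on the 9 arrays, by group (x axis). Symbols mark the replicate number and black bars the mean ± SD (n = 3). Csrp1, Tgfb1i1 and Pdlim5 show 3 parted groups with the double-drug arrays in the middle, while Pdlim1, Pdlim2 and Csrp2 overlap throughout.

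**Figure D2:**
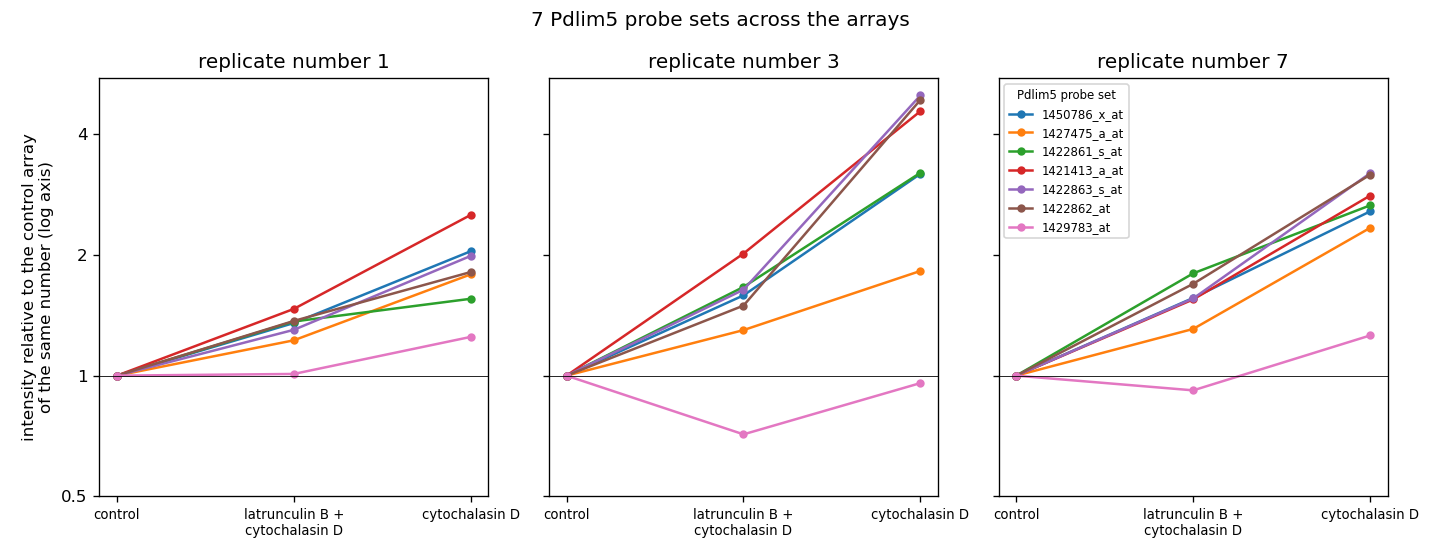
Intensity of each of the 7 Pdlim5 probe sets divided by the control array of the same replicate number (y axis, log scale), for the 3 groups (x axis) in 1 panel per replicate number. In every panel the 6 upper lines climb from control to both drugs to cytochalasin D, while the lowest line ends nearest to 1. That line also climbs, slightly, for number 1, and lies below 1 in the double-drug group of numbers 3 and 7.

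Fblim1 encodes migfilin, which links filamin to kindlin at adhesions. Its brighter probe set read 38.0, 52.3 and 46.8 in controls and 64.1, 74.9 and 73.6 with cytochalasin D, so the groups did not overlap, but the log2 change of 0.50 (SE 0.14) did not pass the test (adjusted p = 0.221). The other probe set averaged 33.9 ± 1.16 in controls and 70.0 ± 15.8 under cytochalasin D (SD, n = 3); its change of 0.77 did not pass either (adjusted p = 0.189). With the replicate block the brighter probe set was called (limma adjusted p = 0.0311) and the other was not (0.083). Both are dim, and the added 16 shrinks such changes: the ratios of group means were 1.55 and 2.06. The double-drug arrays, at 34.1, 47.3 and 53.2 on the brighter probe set, overlapped the controls, with a log2 change of -0.03 (95% interval -0.35 to 0.30).

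The other 3 genes had no change that could be told from their spread. Pdlim1, CLP36, which binds alpha-actinin, read 1389, 1232 and 1459 in controls and 1407, 1174 and 1360 with cytochalasin D, a log2 change of -0.05 with a 95% interval of -0.25 to 0.15. Pdlim2, which is also a ubiquitin ligase that ends STAT and NF-kappaB signals in the nucleus, read 766, 721 and 635 against 701, 862 and 523, a log2 change of -0.05 (95% interval -0.48 to 0.38). The ranges overlapped in both genes, and the interval of Pdlim2 is wider because its cytochalasin D arrays lay far apart. Csrp2, the CRP of vascular smooth muscle, read 1165, 1681 and 1712 in controls, 1287, 1555 and 1581 with cytochalasin D, and 1249, 1597 and 1710 in the double-drug group. Its log2 change with cytochalasin D was -0.03 (95% interval -0.47 to 0.42). In Csrp2 the arrays differed by replicate number: the 3 arrays numbered 1 lay below the other 6, whatever the drug. For all 3 genes the intervals exclude changes of the size seen in Csrp1.

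Against controls, the double-drug group held 1 called member probe set of 18, which was higher, where 0.111% of all tested probe sets were called (0.1% higher and 0.0111% lower). It was the brighter Csrp1 probe set, with a log2 change of 0.84 (SE 0.09, limma adjusted p = 0.0412). Double-drug values lay above all controls in 7 of 18 member probe sets, and below them in 0, against 4.09% and 3.99% of all tested (8.08% in either direction). With 1 probe set per gene they lay above in 4 of 8 genes and below in 0. Here same-numbered arrays deviated together, and with the replicate number as a block Csrp1 was no longer called (adjusted p = 0.0744), whereas Pdlim7 (1.16, adjusted p = 0.16 without and 0.0296 with the block) and Tgfb1i1 (0.83, 0.101 and 0.0383) were. The Csrp1 call also ended without any array other than control replicate 1 (adjusted p between 0.0817 and 0.218), out of a range from 0.0243 to 0.218 over 18 alternatives. Pdlim5 had a change of 0.57 (95% interval 0.07 to 1.08, adjusted p = 0.832) on its brightest probe set.

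The direct comparison asks whether latrunculin B lowered what cytochalasin D gave on its own. Csrp1 was higher with cytochalasin D than with both drugs on both of its probe sets, by 0.83 (SE 0.09, limma adjusted p = 0.0342) and 1.10 (SE 0.14, adjusted p = 0.0488). These were the 2 called of 18 member probe sets, beside 0.259% of all tested (0.248% higher and 0.0111% lower). With the replicate block both calls were lost (adjusted p = 0.0831 and 0.0596), and that of the brighter one also ended without any single array other than control replicate 1 (adjusted p between 0.0633 and 0.166, out of 0.0184 to 0.166 over 18 alternatives). The changes of Pdlim5 (0.77), Tgfb1i1 (0.63), Pdlim7 (0.58) and Fblim1 (0.52) were of similar size and did not pass the test, with adjusted p of 0.607, 0.228, 0.921 and 0.532. Their 95% intervals, 0.26 to 1.27, 0.34 to 0.93, 0.10 to 1.07 and 0.20 to 0.85, lay above 0 before any adjustment for the number of probe sets tested. Cytochalasin D arrays exceeded all double-drug arrays in 10 of 18 member probe sets, against 2.92% of all tested, and lay below them in 0, against 3.33% (6.26% in either direction). With 1 probe set per gene they lay above in 4 of 8 genes and below in 0.

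The order of the groups repeated itself within the family. In 6 of 18 member probe sets every control lay below every double-drug array and every double-drug array below every cytochalasin D array, which held for 0.863% of all tested probe sets. The 6 belong to Csrp1 (both probe sets), Pdlim5 (2 probe sets), Pdlim7 (the dimmer called one) and Tgfb1i1. Since both drug groups are set against the same controls, their changes share the control arrays' error. Side by side, the log2 changes with cytochalasin D and with both drugs were 1.66 and 0.84 for Csrp1, 1.47 and 0.83 for Tgfb1i1, 1.75 and 1.16 for Pdlim7, 1.34 and 0.57 for Pdlim5, and 0.50 and -0.03 for Fblim1.

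**Figure D3:**
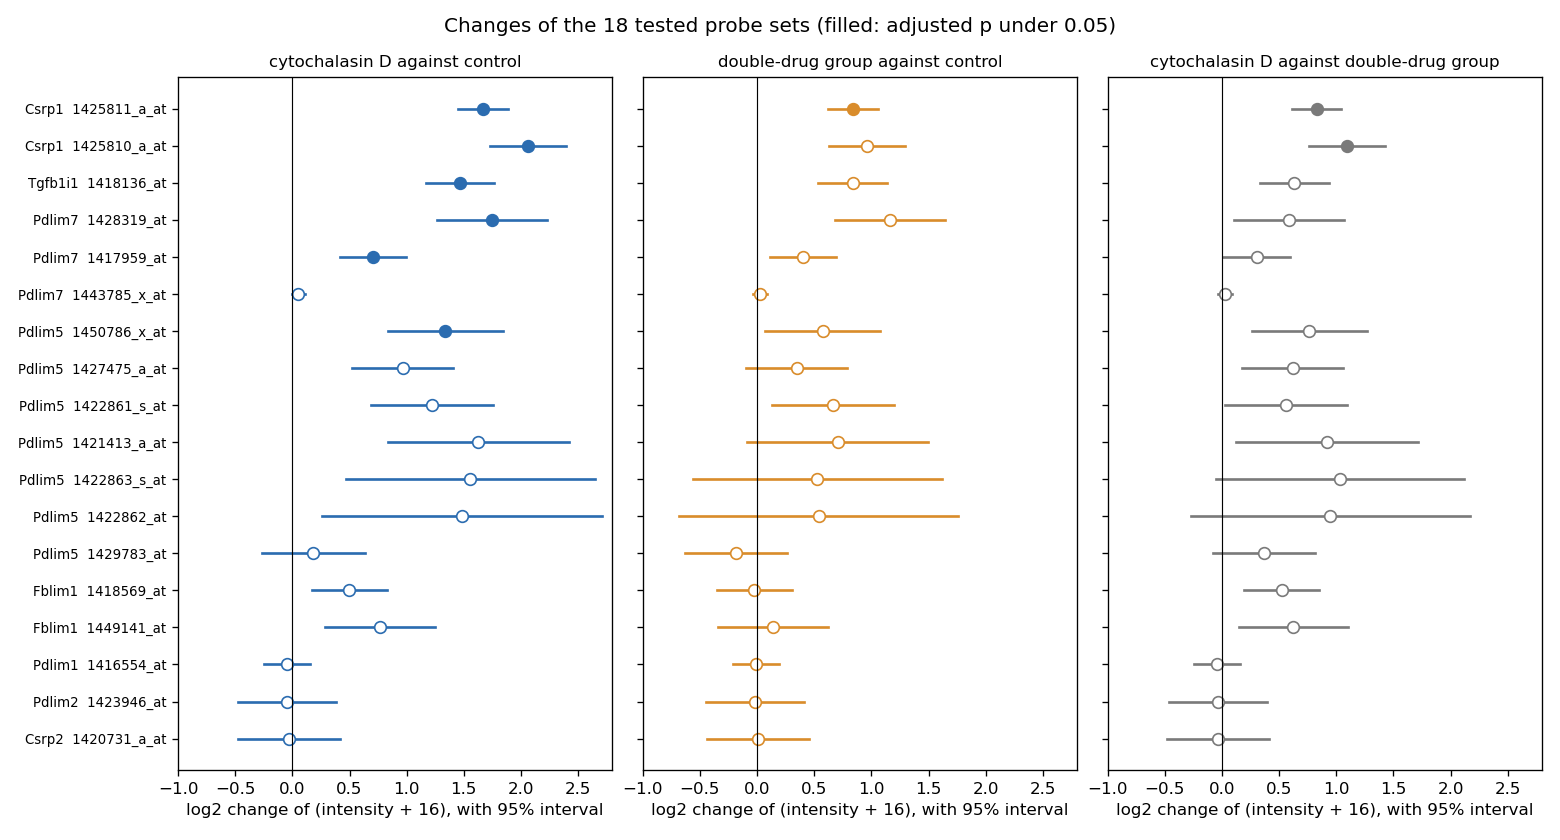
Log2 change of (intensity + 16) with its 95% interval (x axis) for each of the 18 tested probe sets (y axis) in the 3 comparisons, from limma without the replicate block. Filled circles have an adjusted p under 0.05: 6 with cytochalasin D against control, 1 in the double-drug group against control and 2 in the direct comparison.

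Within arrays, the paralogs were compared by the log2 difference between their brightest probe sets, which shows unequal change and not unequal level. Of 8 pairs listed, 3 had both genes measured, and 9 tests were run on them. The ratio of Csrp1 to Csrp2 shifted by 1.69 with cytochalasin D (SE 0.27), by 0.83 with both drugs (SE 0.28), and by 0.86 between the drug groups (SE 0.10). In each of these comparisons the groups did not overlap and all 3 replicate numbers moved the same way (1.24, 1.98 and 1.86 with cytochalasin D for numbers 1, 3 and 7). The exact two-sided permutation p was 0.1 in each, the smallest that 3 against 3 arrays allow, and 0.3 after adjustment over the 9 tests.

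For the Enigma-type pair Pdlim5 and Pdlim7 the groups overlapped in all 3 comparisons. The change of Pdlim5 minus that of Pdlim7 was -0.41 (SE 0.32, exact permutation p = 0.4) with cytochalasin D, -0.59 (SE 0.35, p = 0.2) with both drugs, and 0.18 (SE 0.38, p = 0.7) in the direct comparison. Within replicate numbers 1, 3 and 7 the differences were -0.57, -0.072 and -0.58 with cytochalasin D and -0.50, -0.47 and -0.80 with both drugs, of 1 sign in each, and -0.071, 0.39 and 0.22 in the direct comparison. An exact sign-flip test over the 3 pairs gave p = 0.25 with both drugs, the smallest it can give, and 0.5 in the direct comparison; for Csrp1 and Csrp2 it gave 0.25 in both. Pdlim1 and Pdlim2, of the ALP type with a single LIM domain, differed by -0.0017 (SE 0.29), 0.0057 (SE 0.17) and -0.0073 (SE 0.29) in the same order of comparisons, each with an exact permutation p of 1.

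**Figure D4:**
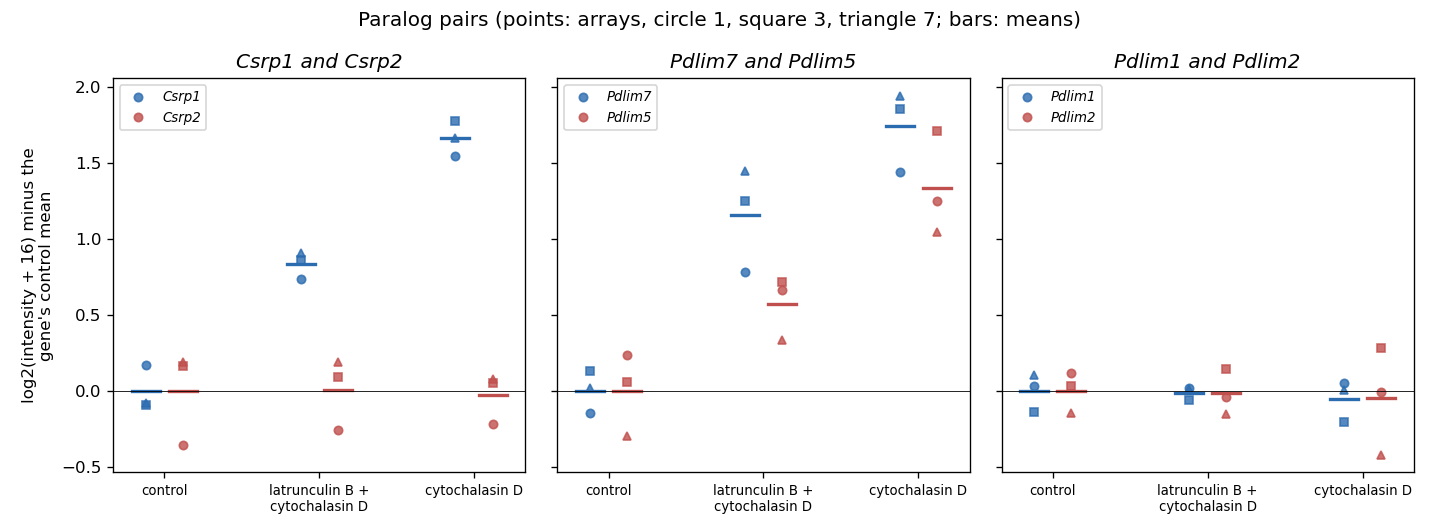
Log2(intensity + 16) minus the control mean of the same gene (y axis) on each array for 3 paralog pairs, by group (x axis); bars are group means and symbols the replicate numbers. Csrp1 parts from Csrp2 in both drug groups, Pdlim7 and Pdlim5 rise together, and Pdlim1 and Pdlim2 stay around 0.

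For each member called with cytochalasin D, the genes with the most similar profiles were listed. Likeness was measured as the root mean square difference of the centred log2 values over the 9 arrays, among 11855 genes. The nearest of so many genes are close by selection. All the nearest genes named were themselves called with cytochalasin D against control, and shared control was not tested. Nearest to Tgfb1i1 was Prepl, a prolyl endopeptidase-like protein, at 0.076, against a median of 0.629 over all genes, followed by Dnajb4, a heat shock protein 40 relative, at 0.10 and Mob3a at 0.127. Prepl was also nearest to Csrp1 (0.092), ahead of Mob3a (0.144) and of Tgfb1i1 itself (0.149). Nearest to Pdlim7 were Npas4, a transcription factor of the bHLH-PAS type (0.123), Mob3a (0.138) and Traf5 (0.16). Nearest to Pdlim5 were Fhl2, another LIM protein (0.148), the actin elongation factor Vasp (0.199) and Zfp281 (0.21). Among the members, Csrp1 and Tgfb1i1 were closest (0.149), then Pdlim7 and Tgfb1i1 (0.186), while Pdlim2 and Pdlim7 were farthest apart (0.81).

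Other LIM proteins of actin structures were partly moved by cytochalasin D. Of 26 tested, 7 rose and 0 fell, beside 1.57% of all tested probe sets called in either direction, with a median log2 change of 0.25. They included Lima1, the actin-binding protein EPLIN (1.87, limma adjusted p = 0.00191), Fhl1 (1.80, 0.00261), Lims2, the adhesion protein PINCH2 (1.38, 0.00496), and Fhl2 (1.12, 0.00868). In the double-drug group 0 of 26 were called by limma (4 at an unadjusted p under 0.05), beside 0.111% of all tested probe sets. Called higher with cytochalasin D alone than with both drugs were 3, Fhl1 (1.74), Lims2 (1.23) and Mical2 (0.61), beside 0.248% of all tested. With the replicate block Lima1 was called in both of these comparisons (adjusted p = 0.00859 and 0.0234), and Mical2 was not (0.0881). Ldb3, a PDZ-LIM gene outside the chosen set, had 8.98 ± 1.09 in controls and 41.5 ± 30.2 under cytochalasin D (SD, n = 3), and its change of 1.08 did not pass the test (adjusted p = 0.268).

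Of 15 tested binding partners of the family, 3 rose with cytochalasin D and 0 fell: Palld, palladin (2.81, limma adjusted p = 0.00198), Vcl, vinculin (1.33, 0.0195), and Vasp (1.31, 0.0381). Over all tested probe sets 1.14% were called higher and 0.422% lower. The alpha-actinins Actn1 (0.49, limma adjusted p = 0.447) and Actn4 (0.34, 0.0659) did not pass the test, but with the replicate block both did (0.00755 and 0.0095). The same held for Tpm2 (0.94, limma adjusted p = 0.0616 without and 0.00926 with the block), Fermt2 (0.76, 0.0897 and 0.00738) and Ilk (0.45, 0.576 and 0.00823). In the other comparisons limma called 0 of 15, with 4 at an unadjusted p under 0.05 in the double-drug group and 6 in the direct comparison. Of all tested probe sets 0.111% and 0.259% were called there, in either direction. Of 7 tested LIM proteins that act in the nucleus as transcription factors or cofactors, limma called 0 in any comparison, with 1, 1 and 0 at an unadjusted p under 0.05. At the shares of all probe sets just given, 0 of 7 does not set these genes apart. Among 25 known MRTF-SRF targets, of which Fhl1, Fhl2, Zyx, Vcl, Flna and Tpm2 are also in the lists above, 19 rose with cytochalasin D, 4 in the double-drug group and 7 in the direct comparison (4 with the replicate block), with median log2 changes of 1.36, 0.59 and 0.68. In the same order, 1.14%, 0.1% and 0.248% of all tested probe sets were called higher. The summed intensity of the smooth muscle markers was 3847 to 6069 in controls, 20112 to 22346 with cytochalasin D and 9313 to 11400 in the double-drug group, with Lmod1 and Synpo2 not above the filter. Nearly all of that sum was Acta2, itself a listed MRTF-SRF target. With cytochalasin D, 2 of the 5 tested were called, Acta2 (2.08) and Cnn1 (1.36), and Smtn (0.22), Myh11 (0.0022) and Des (0.045) were not. Cnn1 averaged 4.59 in controls and 5.9 in the double-drug group, below the lowest 40th percentile of an array (6.16), and 37.0 with cytochalasin D. It passed the filter through the group where it was high, so its call is not separate from that filter. Cnn1 is also counted among the 19 and the 7 called MRTF-SRF targets. Cardiac muscle markers summed to 124 to 132, 310 to 443 and 159 to 226 in the same order, with Actn2 not above the filter and Myh6 at 8.57 to 9.68. Of the 4 tested, Nkx2-5 was called with cytochalasin D, at a mean of 80.0 in controls and 315 with the drug. Ldb3 (1.08, means given above), Tnnt2 (-0.063) and Myh6 (0.0016) were not. The part of other cell types in the results was not tested.

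The matched promoter windows of Csrp1, Pdlim7 and Pdlim5, which rose, are shown with that of Pdlim1, which was not called, to compare their letters with those of the SRF site. RefSeq windows on GRCm38.p6, from 250 bases before to 50 after a start, were found for 7 of the 10 genes, 10 windows in all; Pdlim2, Csrp2 and Tgfb1i1 were not matched. Capitals mark matches, on either strand, to the CArG box, to a CArG box with 1 position off, or to any of 4 shorter motifs, of which GGGCGG and TATAAA occur in the windows shown.
Csrp1, upstream start (chr1:135719813-135720112, plus strand): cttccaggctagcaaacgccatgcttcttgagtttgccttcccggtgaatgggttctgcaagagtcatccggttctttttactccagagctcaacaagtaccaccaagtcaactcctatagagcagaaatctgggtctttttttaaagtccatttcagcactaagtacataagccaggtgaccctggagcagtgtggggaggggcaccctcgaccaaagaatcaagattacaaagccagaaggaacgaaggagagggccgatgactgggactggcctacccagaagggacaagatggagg
Csrp1, downstream start (chr1:135728917-135729216, plus strand): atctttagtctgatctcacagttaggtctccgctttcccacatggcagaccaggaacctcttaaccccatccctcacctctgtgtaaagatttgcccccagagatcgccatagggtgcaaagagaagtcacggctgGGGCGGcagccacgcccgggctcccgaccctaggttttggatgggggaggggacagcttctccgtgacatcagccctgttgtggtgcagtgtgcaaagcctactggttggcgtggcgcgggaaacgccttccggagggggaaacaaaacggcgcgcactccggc
Pdlim7 (chr13:55513397-55513696, minus strand): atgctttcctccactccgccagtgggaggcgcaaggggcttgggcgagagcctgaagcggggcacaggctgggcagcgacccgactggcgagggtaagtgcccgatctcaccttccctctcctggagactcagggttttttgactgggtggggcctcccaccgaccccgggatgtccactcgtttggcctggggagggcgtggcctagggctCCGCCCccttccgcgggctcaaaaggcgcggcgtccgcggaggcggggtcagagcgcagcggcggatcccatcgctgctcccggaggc
Pdlim5, upstream start (chr3:142395647-142395946, minus strand): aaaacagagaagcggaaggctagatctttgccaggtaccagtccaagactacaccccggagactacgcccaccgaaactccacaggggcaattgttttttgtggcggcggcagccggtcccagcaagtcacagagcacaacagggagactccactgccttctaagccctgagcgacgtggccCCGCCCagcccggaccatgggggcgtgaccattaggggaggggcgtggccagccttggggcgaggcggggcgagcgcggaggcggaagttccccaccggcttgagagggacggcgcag
Pdlim5, downstream start (chr3:142391801-142392100, minus strand): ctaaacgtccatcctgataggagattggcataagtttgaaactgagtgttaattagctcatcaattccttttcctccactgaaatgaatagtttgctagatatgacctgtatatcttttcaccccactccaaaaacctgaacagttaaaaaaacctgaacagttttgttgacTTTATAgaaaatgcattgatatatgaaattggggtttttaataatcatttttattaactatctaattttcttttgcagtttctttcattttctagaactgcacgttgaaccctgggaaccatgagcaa
Pdlim1 (chr19:40271567-40271866, minus strand): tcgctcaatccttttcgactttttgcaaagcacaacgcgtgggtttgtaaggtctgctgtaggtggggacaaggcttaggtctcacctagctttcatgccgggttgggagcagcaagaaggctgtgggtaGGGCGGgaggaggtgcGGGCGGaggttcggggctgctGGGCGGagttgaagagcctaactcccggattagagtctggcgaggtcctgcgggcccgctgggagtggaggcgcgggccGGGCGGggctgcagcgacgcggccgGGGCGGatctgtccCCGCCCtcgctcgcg
The CArG box, the letters SRF binds, was in 0 of the 10 windows, in 9 of 24 windows of the MRTF-SRF targets named above and in 1.63% of 32851 windows of all genes. With 1 position off it was in 2 of the 10, those of Pdlim3 and Pdlim4, beside 21.1% of all windows. The capitals shown here are 1 TATAAA, on the opposite strand, in Pdlim5 (downstream start) and otherwise GGGCGG on either strand: 6 matches in Pdlim1, and 1 each in Csrp1 (downstream start), Pdlim5 (upstream start) and Pdlim7. That motif was in 7 of the 10 windows and in 35.7% of all. Of the other motifs, GGAATG was in 2 of the 10 windows (14.7% of all), TGANTCA in 1 (7.81%) and TATAAA in 1 (13.6%). These windows are short, the starts used in these cells were not measured, and a missing match says only that the letters are not there.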

How the data were processed

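RNA of 9 cultures was measured on Affymetrix mouse arrays. Each deposited value is a linear intensity that the authors had already normalized, given for every probe set on every array. MAS5 and GCRMA are named, per the submitters' processing notes, without versions or which made these values, so the background correction behind dim values is unknown. Gene symbols came from the platform annotation, updated by gene identifier with a RefSeq table of GRCm38.p6.

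Values were changed to log2(intensity + 16). Control probe sets were left out. The fit used R 4.3.3 and limma 3.58.1 (lmFit, eBayes) on all 9 arrays with 1 coefficient per group, two-sided; p-values were adjusted by Benjamini-Hochberg for 27010 tested probe sets, with a threshold of 0.05. A gene is represented by its tested probe set with the highest mean. Log2 changes of single probe sets carry limma's SE. The paralog differences carry an unpaired SE, from the variances of the per-array differences in both groups. The number of arrays limits the precision. Paralog tests were exact permutation tests (SciPy 1.17.1).

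Deviations from group means of same-numbered arrays correlated at 0.413 to 0.834 between double-drug and control, and at 0.411 to 0.756 between the drug groups. Between cytochalasin D and control the values were 0.710, 0.076 and 0.654 for numbers 1, 3 and 7. There 5 of 6 arrays correlated best with their own number. The main fit and the permutation tests were unpaired in all 3 comparisons. Results with the replicate numbers from the sample titles as a block are given beside them. The series design calls the replicates independent.

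The members, lists and tests were chosen with earlier results of these data known. Named genes are all members, up to 4 genes per list by adjusted p, and the 3 genes most like each member called with cytochalasin D. Ldb3, the alpha-actinins, Fermt2 and Ilk were named after their values were seen. Other pseudocounts, filters, normalization, priors, arrays and left-out replicates were tried.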

Additional observations from a re-analysis of the deposited data

How the results depend on the processing

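With 3 arrays a group, calls near the threshold turned on single arrays. For cytochalasin D against control limma called 6 member probe sets and 4 genes, and the range with 1 array left out was 3 to 6 probe sets and 2 to 4 genes, the lowest without cytochalasin D replicate 3. With the replicate block 10 probe sets were called in this comparison. Fblim1 was with them (limma adjusted p = 0.0311, out of 0.0311 to 0.52 over 18 alternatives), as were 4 of the 7 Pdlim5 probe sets (adjusted p between 0.0103 and 0.0403). Over all 27010 tested probe sets the block also moved the number called, from 423 to 1044 here. It went from 30 to 123 in the double-drug group against control and from 70 to 99 in the direct comparison. In the double-drug group against control 1 probe set and 1 gene were called, 0 and 0 with a pseudocount of 64, no filter, quantile normalization or only the 6 arrays, 2 and 2 with the replicate block, 2 genes with the mean of a gene's probe sets, and 0 to 2 probe sets and 0 to 1 genes with 1 array left out. In the direct comparison 2 probe sets and 1 gene were called, 0 and 0 with no filter, the replicate block or only the 6 arrays, 1 probe set with quantile normalization, and 0 to 2 and 0 to 1 with 1 array left out. Of the lists, the binding partners went from 3 to 8 called with the replicate block, Actn1 (adjusted p = 0.00755) and Actn4 (0.0095) among them, and the nuclear LIM genes from 0 to 1, which was lower (cytochalasin D against control), the other LIM proteins from 0 to 1 with it (double-drug group against control) and from 3 to 1 with no filter (direct comparison), where the MRTF-SRF targets went from 7 to 4 under either. Of 432 values of single genes under alternatives, 368 kept direction and side of the threshold, 35 lost and 4 gained a call, and 25, none of them called, changed sign. The sign changes, other than 2 of Fblim1 given next, came with 1 array left out and lay in these ranges: for cytochalasin D against control Pdlim1 -0.12 to 0.028, Pdlim2 -0.21 to 0.14 and Csrp2 -0.21 to 0.068; for the double-drug group against control Pdlim1 -0.079 to 0.041, Pdlim2 -0.098 to 0.053, Csrp2 -0.17 to 0.14 and Fblim1 -0.13 to 0.11; for the direct comparison Pdlim1 -0.090 to 0.039, Pdlim2 -0.20 to 0.15 and Csrp2 -0.17 to 0.058. Fblim1 in the double-drug group also read 0.00042 after quantile normalization and 0.057 as the mean of its probe sets, against -0.03. The Pdlim1 to Pdlim2 difference ran from -0.21 to 0.24, -0.079 to 0.13 and -0.22 to 0.24 in the 3 comparisons with 1 array left out, and that of Pdlim5 and Pdlim7 in the direct comparison from -0.081 to 0.42. The causes were not tested.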
